A study of Mus musculus with 60 samples.

Results

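The imprinted neighbourhood of Peg10 and Sgce on mouse chromosome 6 was described through its peaks of H3K27me3 and of a tagged histone H3 in CUT&RUN, which directs a nuclease to chromatin with an antibody and sequences the released DNA. Its members were 10 protein-coding genes (Calcr, Tfpi2, Gngt1, Bet1, Col1a2, Casd1, Sgce, Peg10, Ppp1r9a and Asb4) and the span from 3600000 to 5500000 on mm10, which is 1900 kb long. All 10 were found in the GENCODE annotation, where 15 protein-coding genes start in the span and 21951 are listed in all. The span overlapped 72 of the 20900 consensus regions of H3K27me3, where a consensus region is a merged stretch with peaks in both libraries of at least 1 genotype. The locus was chosen by values measured in these libraries, since regions around Casd1 held strong H3K27me3 peaks in H3WT and none in H3R26C. The comparison of H3R26C with H3WT is therefore given as a description, with no test.

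All samples came from C3H 10T1/2, a clonal line of mouse mesenchymal progenitor cells, each carrying a lentiviral transgene for human histone H3.1 with HA and FLAG tags at its C-terminus, in a vector with an EF1 promoter and puromycin selection. The transgene was unmutated in H3WT and had a cysteine in place of arginine 2, 8, 17 or 26 in H3R2C, H3R8C, H3R17C and H3R26C. The cells kept their own H3 genes, so anti-H3K27me3 read the mark on all H3 and anti-HA read the transgenic histone. No untransduced cells were analysed here, and H3WT served as the control of each mutant. Peak lists of 5 genotypes with 2 antibodies and 3 labelled replicates gave 30 lists. In each group 2 of the 3 lists were identical and were counted as 1 library, called the shared list below, while the remaining one is called the single list. For H3R17C with anti-H3K27me3 the single list carried the name of another mark and was set aside, which left 9 H3K27me3 libraries and 10 HA libraries. The study describes its replicates as biological, but with identical lists counted once at most 2 lists per genotype and antibody remain. The p-values of regions rest on the spread within pairs of lists, pooled over the 4 genotypes of the fit and shared across regions. The p-value of HA coverage rests on reassigning the 10 HA libraries.

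The H3K27me3 lists held between 20077 and 24598 peaks, of which 63 to 144 lay in the span. The peak files give no read totals. The study states a total of reads for each labelled replicate, but identical lists belong to replicates with different totals, so the reads behind a shared list cannot be told and no depth is set beside the values. The scaled signal used here is the total signal of the peaks in a region divided by the median of that library over the 5589 regions with a peak in all 8 libraries of H3WT, H3R2C, H3R8C and H3R26C. A value of 1 is therefore a typical shared region, and a value of 0 means that no block passed the threshold of the list, not that the mark was absent. The smallest peak of a list corresponded to a scaled signal between 0.125 in the shared list of H3R8C and 0.195 in the single list of H3R26C.

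H3K27me3 is laid down by the Polycomb Repressive Complex PRC2 on silent developmental genes and over broad domains between genes. In imprinted clusters, genes are expressed from the allele of 1 parent. Peg10 and Sgce share a start region that is methylated on the maternal allele, and both are expressed from the paternal allele, while several neighbours, among them Ppp1r9a and Asb4, have been described as preferentially maternal in some tissues. The peaks do not separate the alleles, and expression was not measured in these files. Col1a2 encodes a chain of type I collagen and is among the genes that mark mesenchymal cells. It lies on the plus strand from 4504814 to 4541544, followed by Casd1 on the plus strand (4600839 to 4643355), Sgce on the minus strand (4674350 to 4747207), Peg10 on the plus strand (4747306 to 4760517) and Ppp1r9a on the plus strand (4902917 to 5165661).

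Promoter sequences of 8 of the 10 members were taken from RefSeq (GRCm38.p6), each running from 250 bases before to 50 bases after a transcript start. The 4 genes shown lie on the plus strand, and the RefSeq start of Col1a2 lies downstream of the GENCODE start used for start sites below. Of several RefSeq starts, the one nearest the GENCODE start is shown for Casd1 and Asb4 and the one with more CG dinucleotides for Ppp1r9a. Their windows are shown because they belong to the genes at which the genotypes differ or at which no library had a peak, and CG dinucleotides, at which DNA methylation occurs, are in capitals. The number of CG dinucleotides is a description of the window and says nothing about a factor.

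Casd1, chr6:4600661-4600960: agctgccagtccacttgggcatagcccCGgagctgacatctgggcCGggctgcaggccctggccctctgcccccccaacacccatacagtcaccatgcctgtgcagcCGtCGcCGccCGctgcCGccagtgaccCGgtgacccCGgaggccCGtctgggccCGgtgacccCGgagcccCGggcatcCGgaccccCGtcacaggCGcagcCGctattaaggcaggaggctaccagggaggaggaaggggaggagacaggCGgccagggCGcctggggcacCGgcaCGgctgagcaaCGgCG

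Col1a2, chr6:4505368-4505667: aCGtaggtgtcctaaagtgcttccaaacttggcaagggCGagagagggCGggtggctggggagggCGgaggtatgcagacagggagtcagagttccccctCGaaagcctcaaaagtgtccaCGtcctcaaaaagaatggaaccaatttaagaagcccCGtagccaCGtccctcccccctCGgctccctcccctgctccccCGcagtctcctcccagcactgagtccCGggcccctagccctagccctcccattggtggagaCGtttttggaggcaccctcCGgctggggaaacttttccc

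Ppp1r9a, chr6:4903061-4903360: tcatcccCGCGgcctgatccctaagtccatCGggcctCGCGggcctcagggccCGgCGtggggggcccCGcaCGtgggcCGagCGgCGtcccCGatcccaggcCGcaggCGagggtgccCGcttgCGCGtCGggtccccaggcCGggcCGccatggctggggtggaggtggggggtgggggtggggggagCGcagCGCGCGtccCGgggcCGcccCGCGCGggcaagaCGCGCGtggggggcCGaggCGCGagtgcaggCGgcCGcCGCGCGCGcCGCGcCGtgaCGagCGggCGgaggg

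Asb4, chr6:5383136-5383435: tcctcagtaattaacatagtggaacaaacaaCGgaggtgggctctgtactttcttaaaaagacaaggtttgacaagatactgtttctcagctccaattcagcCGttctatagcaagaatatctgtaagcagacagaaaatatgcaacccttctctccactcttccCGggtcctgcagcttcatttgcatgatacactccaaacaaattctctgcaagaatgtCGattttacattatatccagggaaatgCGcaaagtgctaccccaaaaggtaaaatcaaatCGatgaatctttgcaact

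The Ppp1r9a window held 48 CG dinucleotides, a number reached by 1.22% of the 32851 promoter windows in the table, whose median was 7. The other Ppp1r9a window, nearer the GENCODE start, held 10 (reached by 43.5%). Casd1 had 23 (reached by 21.5%), Col1a2 had 13 (37.9%) and Asb4 had 6 (56.4%). The Asb4 window lay wholly under an H3K27me3 peak in 8 of the 9 libraries, all but the single list of H3R26C. The Col1a2 window was under no peak in any of the 9 libraries. The Casd1 window was covered over 290 of its 300 bases in the shared list of H3WT, over 90 in the shared list of H3R8C and over 300 in its single list, and in no other library.

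In H3WT, H3K27me3 lay over the start sites, taken as 1 kb on each side, of 5 of the 10 members in both libraries, namely Calcr, Tfpi2, Gngt1, Casd1 and Asb4. Over all 21938 protein-coding genes of the chromosomes analysed this share was 8.85%. The number of members was 4 in H3R2C, 6 in H3R8C, 3 in the 1 library of H3R17C and 4 in H3R26C. Over all genes the shares were 6.97%, 9.67%, 8.83% and 8.45% in the same order. Calcr, the calcitonin receptor, and Gngt1, a G protein gamma subunit of rod photoreceptors, had a start site peak in all 9 libraries. Col1a2 had one in none, and neither did its gene body hold a peak.

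**Figure D1:**
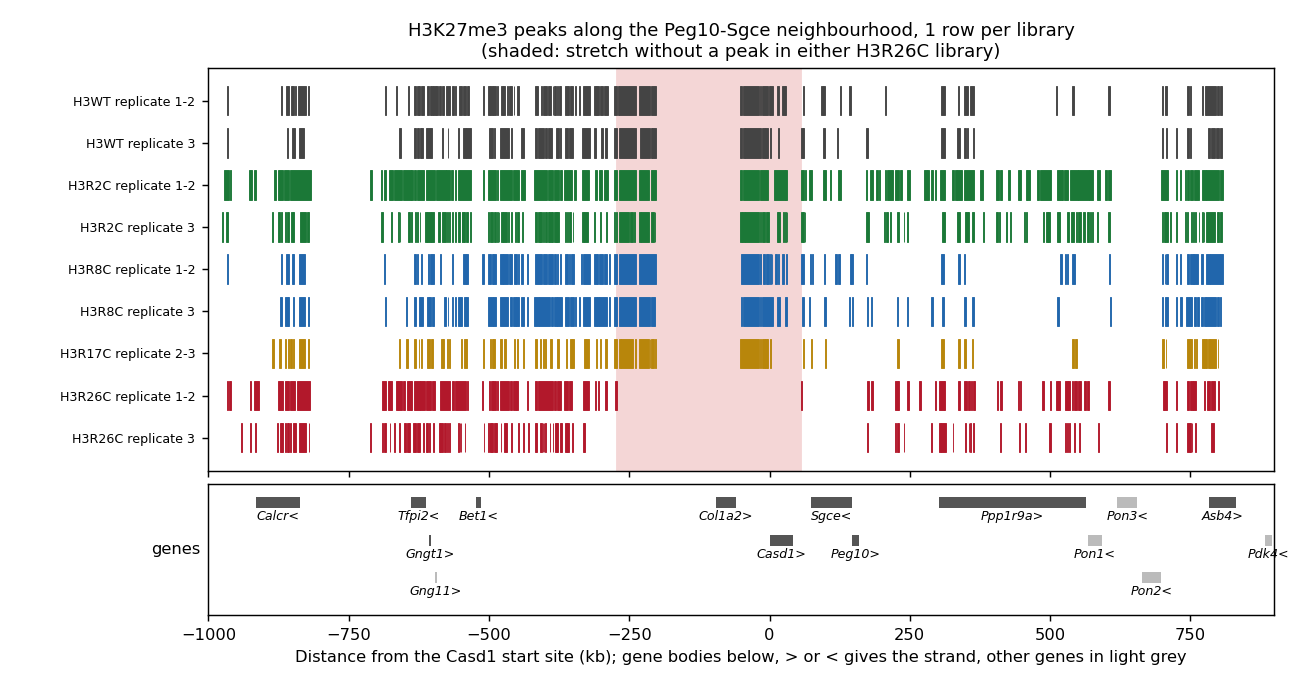
H3K27me3 peaks (bars) of the 9 libraries along the span, by distance in kb from the Casd1 start site, with gene bodies below. Both H3R26C rows are empty across the shaded 328.1 kb around Col1a2 and Casd1, where each of the other 7 libraries has peaks on either side of a gap over Col1a2.

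Of the imprinted pair, Sgce had H3K27me3 peaks over part of its body in most libraries, and Peg10 only in H3R8C. Sgce, which encodes epsilon-sarcoglycan, had 15.9% and 8.17% of its body under peaks in the shared and single lists of H3WT. The values were 21.6% and 0% in H3R2C, 16.2% and 5.90% in H3R8C, 4.19% in H3R17C, and 0% in both H3R26C libraries. Both H3R26C libraries thus lay below both H3WT libraries, which was not tested, while the H3R2C libraries held the highest value and a 0. Peg10, a gene derived from a retrotransposon, had no peak in its body in any library except those of H3R8C, where 11.7% was covered in each. That coverage came from 1 small region over the shared Sgce and Peg10 start, from 4746901 to 4748850, with a scaled signal of 0.218 and 0.174 in H3R8C and 0 in the other 7 libraries. It is taken up again with the tests of H3R8C.

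Casd1, a sialic acid O-acetyltransferase of the Golgi, had no H3K27me3 peak in H3R26C. Its body was covered over 31.9% and 10.3% in H3WT, 52.2% and 26.9% in H3R2C, 38.5% and 32.3% in H3R8C, 4.70% in H3R17C, and 0% in both H3R26C libraries. No library of another genotype was at 0. From the Casd1 start the nearest peak lay 0 kb and 0.662 kb away in H3WT, 2.24 and 1.74 kb away in H3R2C, 0.089 and 0 kb in H3R8C and 1.01 kb in H3R17C. In H3R26C it lay 55.6 kb and 173 kb away.

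The peaks missing in H3R26C formed a stretch on both sides of Col1a2. The peak-free interval holding the Col1a2 start was 149.4 kb and 148.6 kb long in H3WT, 148.7 and 150.4 kb in H3R2C, 151.2 and 154.1 kb in H3R8C and 148.8 kb in H3R17C. In these 7 libraries its ends therefore moved by a few kb at most. It was 328.1 kb long in the shared list of H3R26C, from 4328301 to 4656400, and 502.1 kb in the single list, from 4271751 to 4773850. The Casd1 start lay inside it in both H3R26C libraries, and the Sgce start only in the single list. Between 4328301 and 4656400 the other genotypes covered 32.0% to 39.9% of the bases, with 105 kb in H3R17C as the lowest value and 131 kb in the shared list of H3R2C as the highest.

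**Figure D2:**
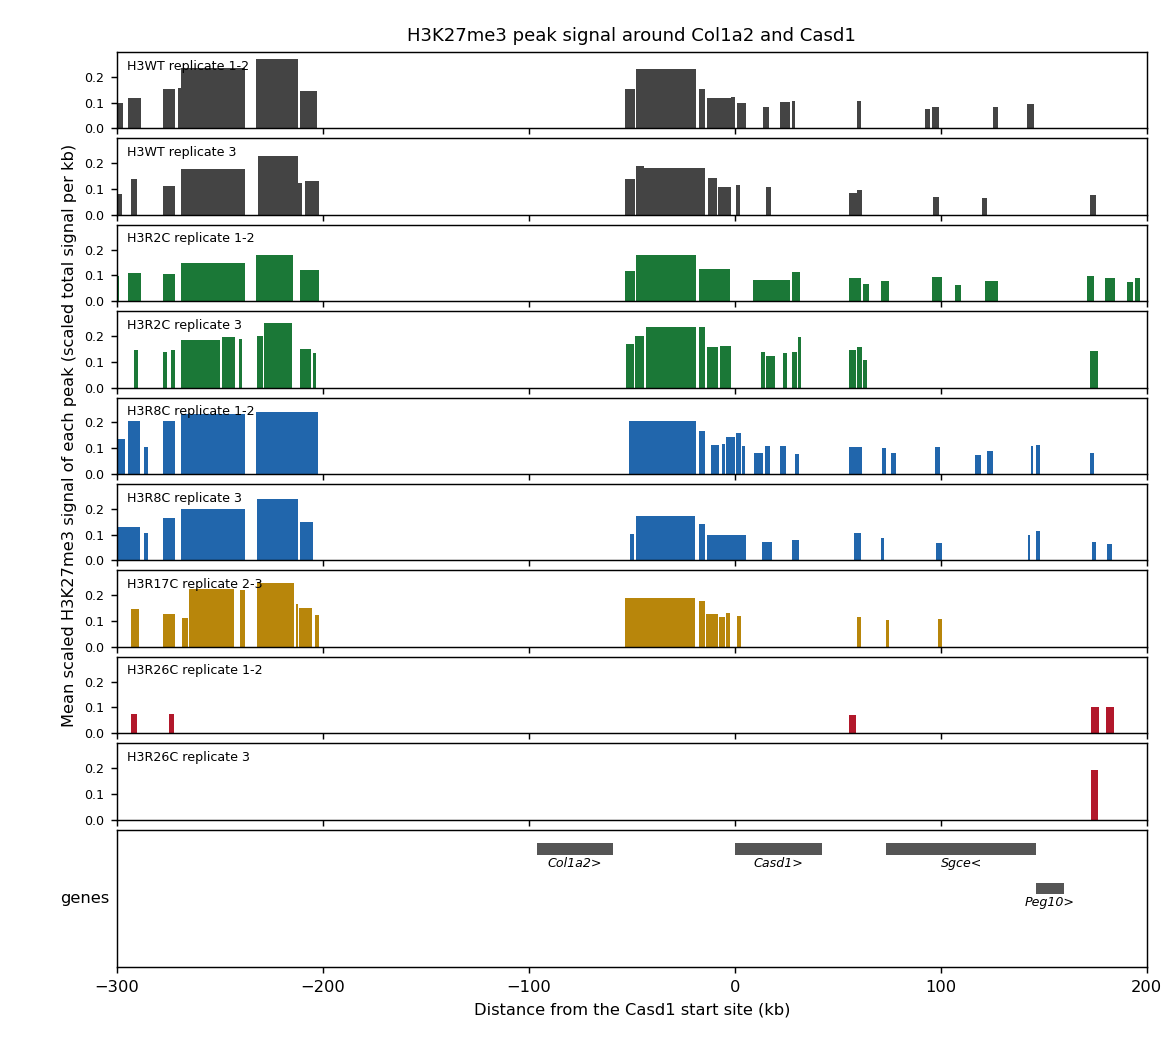
Mean scaled H3K27me3 signal of each peak (scaled total signal per kb) in the 9 libraries, by distance in kb from the Casd1 start site, with gene bodies below. The 7 libraries of H3WT, H3R2C, H3R8C and H3R17C have high blocks on both sides of Col1a2, and both H3R26C libraries have none there.

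Most of the signal of that stretch lay in 3 long regions outside gene bodies or at the Casd1 start. The region from 4331851 to 4363050, between Bet1 and Col1a2, had a scaled signal of 7.24 and 5.52 in H3WT, 4.64 and 5.06 in H3R2C, 7.22 and 6.14 in H3R8C and 5.81 in H3R17C. The region from 4368301 to 4399050, also between Bet1 and Col1a2, had 6.64 and 5.49 in H3WT, 4.39 and 4.92 in H3R2C, 7.20 and 5.61 in H3R8C and 5.77 in H3R17C. The region from 4547551 to 4606500, from the far side of Col1a2 to the first part of Casd1, had 9.93 and 8.25 in H3WT, 7.67 and 9.62 in H3R2C, 9.01 and 7.46 in H3R8C and 8.39 in H3R17C. All 3 were at 0 in both H3R26C libraries, while the lowest value of any other library in them was 4.39. Among the 1609 regions of the genome with a peak in both H3WT libraries and none in H3R26C, these 3 ranked 1 to 3 by their mean H3WT signal, with 9.09, 6.38 and 6.07 against a median of 0.269 over the 1609. This rank describes how the locus came to be chosen and supports nothing further.

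Along the whole span, 7 of the 31 regions called in both H3WT libraries had no peak in either H3R26C library (22.6%, against 13.2% of the 12159 such regions of the genome). Counted in bases, 286.1 kb of the span lay under peaks in both H3WT libraries. No H3R26C library covered 135.9 kb of them (47.5%), against 15.8% over the whole genome. The same share was 3.69% for H3R2C, 6.03% for H3R8C and 29.4% for the 1 library of H3R17C in the span, against 20.2%, 9.43% and 25.0% over the genome. Of the 135.9 kb, 89.8% lay between the Bet1 and Sgce starts, where 62.6% of the H3WT bases had no H3R26C peak, against 15.2% in the rest of the span. The bases without an H3R17C peak were spread otherwise, with 26.4% between the Bet1 and Sgce starts and 35.9% in the rest.

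**Figure D3:**
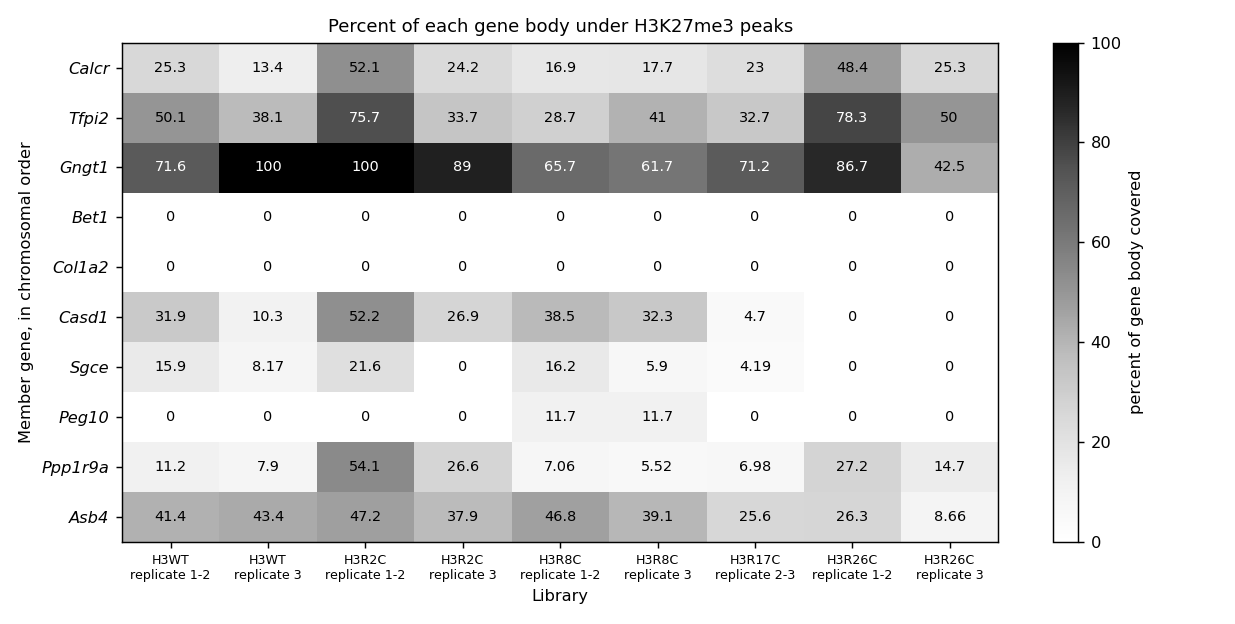
Percent of the body of each of the 10 member genes under H3K27me3 peaks (shade and number), in chromosomal order from top to bottom, for the 9 libraries. Casd1 is at 0 in both H3R26C libraries and in no other, and Ppp1r9a has its highest values in the shared lists of H3R2C (54.1) and H3R26C (27.2).

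On the side of Calcr, Tfpi2 and Gngt1 the H3R26C libraries kept their peaks. The body of Calcr was covered over 48.4% and 25.3% in H3R26C and 25.3% and 13.4% in H3WT. Tfpi2, a Kunitz-type serine protease inhibitor, had 78.3% and 50% in H3R26C and 50.1% and 38.1% in H3WT. The groups overlapped or touched for both genes. In scaled signal they did not, since the Calcr body had 3.87 and 3.78 in H3R26C against 2.05 and 1.04 in H3WT, and the Tfpi2 body 2.35 and 2.98 against 1.27 and 1.04. Such an order of 2 against 2 libraries was not tested, and no share over all genes is given beside it. Gngt1 was covered over 86.7% and 42.5% in H3R26C and 71.6% and 100% in H3WT. The body of Bet1, a SNARE of transport between the endoplasmic reticulum and the Golgi, held no peak in any library, and a start site peak was found only in the shared list of H3R26C.

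On the other side, H3R26C had peaks over Ppp1r9a, which encodes the actin-binding protein neurabin, and fewer over Asb4, an ankyrin repeat protein with a SOCS box. The Ppp1r9a body was covered over 27.2% and 14.7% in H3R26C and 11.2% and 7.90% in H3WT, and its start site had a peak in both H3R26C libraries and in no other. The Asb4 body was covered over 26.3% and 8.66% in H3R26C, 41.4% and 43.4% in H3WT and 25.6% in H3R17C. The region with the Asb4 start, from 5378951 to 5403050, had a scaled signal of 1.83 and 0.836 in H3R26C against 3.23 and 2.24 in H3WT. In H3R17C it had 2.91, so only the covered share of H3R17C was as low as in H3R26C. Both H3R26C libraries therefore stayed below both H3WT libraries at Asb4 and above them at Ppp1r9a. This order of 2 against 2 libraries was not tested, and no share over all genes is given beside it. It is therefore not read as a trait of these genes. Over the span, 11 of the 23 consensus regions without an H3WT peak had one in both H3R26C libraries (47.8%, against 34.6% of 5244 over the genome). Some, such as that from 3682751 to 3690600, were consensus regions only through the peaks of H3R26C and had to be counted. The same rule applied over the genome, and the difference between the shares was not tested.

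Losses and gains both occurred, and the covered share of the whole span separated the genotypes poorly. H3WT covered 20.8% ± 3.19 (SD, n = 2) and H3R26C 17.3% ± 8.30 (n = 2), with 23.2% in the shared and 11.4% in the single list of H3R26C. The difference was -3.49 percentage points, and it became 2.38 without the single list of H3R26C. That list had the narrowest peaks of the 9, with a median of 1900 bp, and the part of this in the difference was not tested. The 3 long regions and the 328.1 kb stretch did not hinge on it, since they held no peak in the shared list either. In H3R2C the span was covered over 42.9% and 24.2%, in H3R8C over 22.2% and 23.5% and in H3R17C over 15.6%.

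H3R2C was compared with H3WT in a limma fit over all 20900 consensus regions, on the log2 of the scaled signal plus 0.25, with 2 libraries per genotype. H3K27me3 rose in 23 of the 72 regions of the span (31.9%) and fell in 0. Over the genome 17.7% rose and 12.5% fell. At an unadjusted p under 0.05, 36 of the 72 regions of the span passed and 0 of them were lower. Over the genome 8570 of the 20900 regions passed, and 3745 of these were lower. The median change was 0.76 over the 72 regions and 0.00 over the genome. Of the 23 regions, 14 had no peak in H3WT and 8 were in the fit only through the peaks of H3R2C, which had to be higher there. The 17 regions of the span called in all 8 libraries are free of that choice, and 4 of them rose and 0 fell (10.1% and 12.1% of the 5589 such regions of the genome). The count of 23 became 37 without the single list of H3R2C and 11 with the signal left unscaled, with 0 lower in either case, while without the single list of H3WT 13 rose and 4 fell.

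Of the 23 regions, 9 overlapped the body of Ppp1r9a, with log2 changes from 0.87 to 3.19, among 14 regions there. The largest changes lay toward its 3′ end. The region from 5150501 to 5169500, which covers exons of Ppp1r9a and of its neighbour Pon1, had a scaled signal of 2.02 and 2.04 in H3R2C and 0 in both libraries of H3WT and of H3R8C. H3R2C exceeded H3WT by 3.19 ± 0.32 log2 units (SE, limma adjusted p = 0.000673). Against libraries at 0 the size of such a change is set by the pseudocount and is no bound, and it was 5.38 with a pseudocount of 0.05 and 1.6 with one of 1. H3R26C had 0.820 and 0.342 there and H3R17C had 0. A genotype at 0 in both libraries adds no spread to the fit. Standard errors and p-values are then set in part by the peak threshold, here and in all 14 regions without an H3WT peak. The region from 5083451 to 5103300, also over Ppp1r9a exons, had 1.92 and 1.04 in H3R2C and 0 in both H3WT libraries (change 2.74 ± 0.32, limma adjusted p = 0.00133). Without the shared list of H3R2C that change was 1.47 (limma adjusted p = 0.0585). Near the start of the gene the change did not pass the test, where the region from 4903251 to 4914750 had 0.905 and 0.820 in H3R2C and 0.882 and 0.757 in H3WT (change 0.06, limma adjusted p = 0.978). Over the whole Ppp1r9a body the summed scaled signal was 13.8 and 10.1 in H3R2C, 6.40 and 6.91 in H3R26C, 2.92 and 1.99 in H3WT, 1.6 and 1.13 in H3R8C and 1.82 in H3R17C. H3R2C and H3R26C thus lay above the other 5 libraries, without overlap, in a sum that was not tested. No share of all genes with such an order is given beside it.

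**Figure D4:**
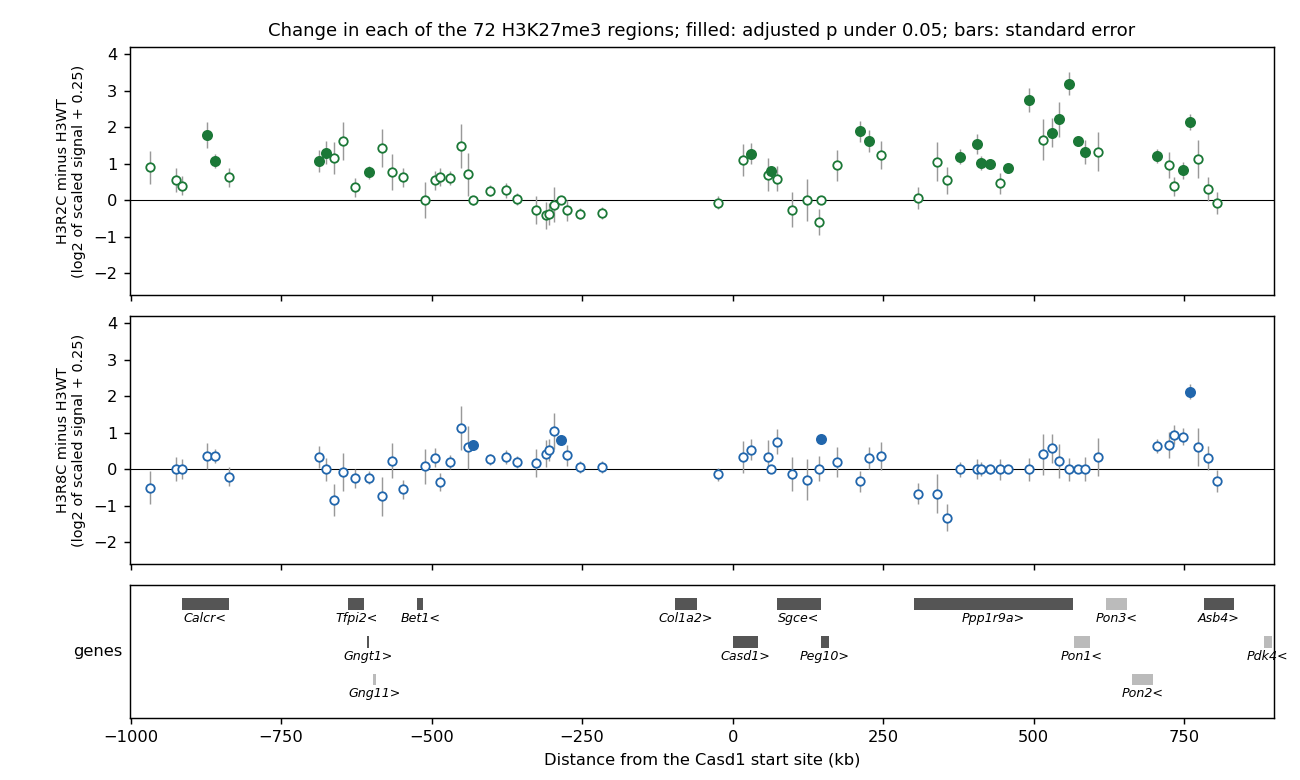
Change of each of the 72 regions in H3R2C (top) and H3R8C (middle) against H3WT on the log2 of the scaled signal plus 0.25, with standard errors, by distance in kb from the Casd1 start site, and gene bodies below. Filled points have a limma adjusted p under 0.05: 23 in H3R2C and 4 in H3R8C, all above 0.

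Smaller gains of H3R2C lay inside Calcr and between genes. In a Calcr intron, the region from 3723151 to 3734150 had 1.12 and 0.674 in H3R2C and 0.179 and 0 in H3WT (change 1.78 ± 0.35, limma adjusted p = 0.0118, and 0.0711 without the shared list of H3R2C). The region from 3986901 to 4006300, with the starts of Tfpi2, Gngt1 and Gng11, had 2.09 and 2.23 in H3R2C and 1.4 and 0.98 in H3WT (change 0.76 ± 0.18, limma adjusted p = 0.0223), and the call was lost without either list of H3R2C, either list of H3R8C or the single list of H3WT (limma adjusted p from 0.0587 to 0.0766). Between Peg10 and Ppp1r9a, the region from 4805351 to 4821000 had 1.04 and 0.793 in H3R2C, 0.146 and 0 in H3WT, and 0 in the libraries of H3R8C, H3R17C and H3R26C (change 1.88 ± 0.28, limma adjusted p = 0.00366). It was among the 8 regions in the fit only through H3R2C, so it had to be higher there. In Casd1, a small region from 4628751 to 4632800 had 0.452 and 0.566 in H3R2C and 0.146 and 0 in H3WT (change 1.27 ± 0.29, limma adjusted p = 0.0205), a call that was lost without any 1 of 7 libraries, all but the shared list of H3WT (limma adjusted p from 0.0557 to 0.0775).

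The blocks on both sides of Col1a2 that were missing in H3R26C did not pass the test in H3R2C or H3R8C. They were chosen in part by their H3WT signal, which is also the baseline here, so these p-values are not independent of the choice. The H3R26C libraries, all at 0 in these blocks, also enter the spread of the fit. A change that did not pass is not read as a block that was kept. The changes of the region with the Casd1 start were -0.07 ± 0.17 in H3R2C (limma adjusted p = 0.825) and -0.14 ± 0.17 in H3R8C (limma adjusted p = 0.808). For the region from 4331851 to 4363050 they were -0.37 and 0.07 (limma adjusted p = 0.139 and 0.997), and for that from 4368301 to 4399050 they were -0.36 and 0.07 (limma adjusted p = 0.151 and 1.0). The region with the Casd1 start is 58.95 kb long, so its sum does not describe the start site itself. Within 1 kb of the Casd1 start, the H3WT and H3R8C libraries had a peak, and those of H3R2C, H3R17C and H3R26C had none. That window groups unlike libraries. The nearest peak lay 1.01 kb away in H3R17C and 2.24 and 1.74 kb away in H3R2C, against 55.6 and 173 kb in H3R26C. The fitted changes of H3R26C, given without a test, were -5.22, -4.72 and -4.65 for the same 3 regions. They compare with a group at 0, so their size depends on the pseudocount and is no bound.

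H3R8C differed from H3WT in 4 of the 72 regions, all higher (5.56%, against 3.30% higher and 2.66% lower over the genome). All 4 had no peak in H3WT, 2 of them were in the fit only through H3R8C, and of the 17 regions called in all 8 libraries 0 passed in either direction (0.501% higher and 1.09% lower over the genome). At an unadjusted p under 0.05, 8 of the 72 regions of the span passed, of which 1 was lower. Over the genome 3587 of the 20900 regions passed, and 1813 of these were lower. The region from 5355201 to 5367100, between Pon2 and Asb4, had 0.892 and 0.8 in H3R8C and 0 in both H3WT libraries (change 2.13 ± 0.21, limma adjusted p = 0.00182). It also rose in H3R2C, with 0.919 and 0.787 (change 2.14 ± 0.21, limma adjusted p = 0.00059), and was present at 0.410 and 0.302 in H3R26C and 0.342 in H3R17C. All 7 mutant libraries thus had a peak there and neither H3WT library did. Both comparisons use the same H3WT libraries, which at 0 add no spread to the fit. The standard errors and p-values are therefore set in part by the peak threshold, as in all 4 regions of H3R8C.

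The small region over the Sgce and Peg10 starts rose in H3R8C (change 0.83 ± 0.06, limma adjusted p = 0.000346), but it was in the fit only through H3R8C and had to be higher there. Its signal of 0.218 and 0.174 was close to that of the smallest peaks of those lists, and its standard error came mostly from 6 libraries at 0 in the fit. The other 2 regions that rose lay between Bet1 and Col1a2 and were as small, with 0.165 and 0.216 from 4314101 to 4316100 and 0.169 and 0.135 from 4169201 to 4171350. Of these, the call of the latter was lost without 5 of the 8 libraries, namely either list of H3WT, either list of H3R2C or the shared list of H3R8C (limma adjusted p from 0.0532 to 0.0707). Without the single list of H3R8C the count of changed regions was 9, of which 1 was lower.

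The other protein-coding genes with a start in the span were Gng11, Pon1, Pon3, Pon2 and Pdk4. Of these 5, 0 had a start site peak in both H3WT libraries, 1 in both H3R8C libraries and 0 in both libraries of H3R2C or H3R26C. Pon3 and Pon2, which like Pon1 encode paraoxonases, and Pdk4, a kinase of the pyruvate dehydrogenase complex, held no peak in their bodies in any library. Pon1 was covered over 55.7% and 26.7% in H3R2C, 5.46% and 6.38% in H3R26C and 0% in the 5 libraries of H3WT, H3R8C and H3R17C.

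HA peaks, which mark the transgenic histone and were not used to choose the locus, lay mostly between Bet1 and Col1a2, in and beside the interval free of H3K27me3 peaks. The 10 HA libraries had 8 to 49 peaks in the span, covering 1.06% to 5.09% of it. The H3WT shared list stood apart with 15344 wide peaks in the genome, against 37907 to 52083 in the other 9 libraries. Of the HA bases of the span, between 69.8% (single list of H3R2C) and 100% (single list of H3R17C) lay between Bet1 and Col1a2, an interval that makes up 22% of the span. The 148.5 kb around Col1a2 that had no H3K27me3 peak in any of the 9 libraries make up 7.82% of the span and held 38.7% to 86.1% of its HA bases. HA peaks covered 5.62% to 41.5% of these 148.5 kb, against 1.58% to 7.87% of the genome, and the local share was above the genome share in all 10 libraries. Other loci were not compared in this way.

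**Figure D5:**
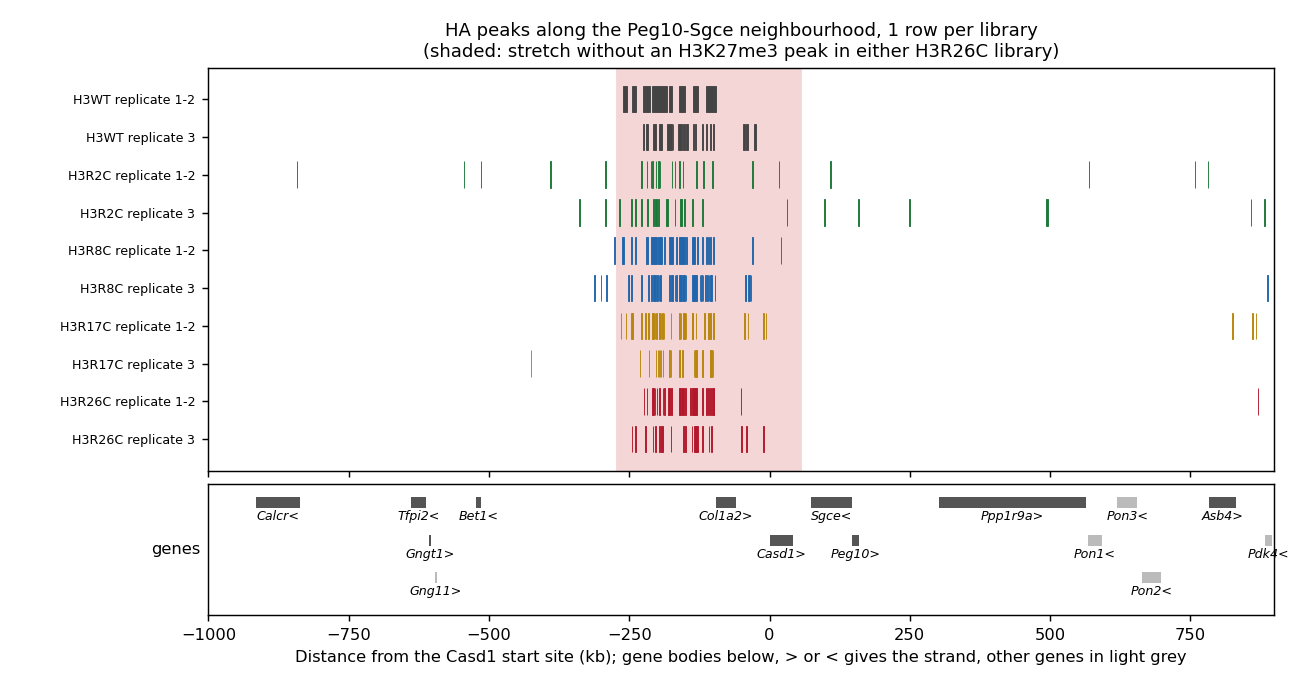
HA peaks (bars) of the 10 libraries along the span, by distance in kb from the Casd1 start site, with gene bodies below and the stretch without H3K27me3 in H3R26C shaded. Between 8 and 45 peaks of each library lie in the shaded stretch, most of them upstream of Col1a2.

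HA peaks of H3R26C lay inside the stretch in which H3K27me3 was missing. Between 4328301 and 4656400 they numbered 31 in the shared and 21 in the single list, and covered 42.7 kb and 25.8 kb. The other genotypes had 8 and 20 peaks in H3WT, 16 and 17 in H3R2C, 25 and 45 in H3R8C and 36 and 20 in H3R17C. Of the H3R26C HA peaks in the stretch, 6 and 8 lay over places with an H3K27me3 peak in H3WT. The same counts were 4 and 6 in H3WT, 7 and 7 in H3R2C, 9 and 13 in H3R8C and 15 and 3 in H3R17C. In H3R26C, 25 and 13 HA peaks lay in the 148.5 kb around Col1a2 that had no H3K27me3 peak in any library. In the block downstream of Col1a2, the shared list of H3R26C had an HA peak from 4549401 to 4550150 and the single list had one from 4550551 to 4551400.

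The share of the span under HA peaks did not differ beyond the spread of the libraries between H3R26C and the other genotypes pooled, H3WT included. It was 1.83% ± 0.666 (SD, n = 2) in H3R26C and 2.66% ± 1.40 (n = 8) in the others, a difference of -0.828 percentage points (exact permutation test over libraries, two-sided p = 0.533, where 0.0444 is the smallest p the design allows). The test treats libraries as exchangeable across genotypes and takes no account of HA coverage over the genome. Both H3R26C libraries lay below both H3WT libraries, with 2.3% and 1.36% against 5.09% and 3.37%, a contrast that was not tested. Libraries of the other mutants ran from 1.06% to 3.73%. Over the genome, HA peaks covered 2.38% and 2.23% in H3R26C and 7.87% and 4.97% in H3WT. At the start sites, 0 of the 10 members had an HA peak in both libraries of any genotype. No share over all genes is given for HA, so this count is not read as a trait of the members. Single libraries had an HA peak at the start of Col1a2 (shared list of H3WT) and of Bet1 and Asb4 (shared list of H3R2C).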

How the data were processed

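Peaks were measured by CUT&RUN in 5 genotypes of C3H 10T1/2 cells with antibodies against H3K27me3 and HA, and each list was used as deposited. Per the study's methods, the authors aligned reads with Rsubread to mm10 and called peaks per sample with SEACR 1.3 (stringent mode, normalised). The deposited signal of each peak, its total and its maximum, is coverage of that library on a 50 bp grid and is not scaled to depth. Read filters and removal of duplicates are not given in the sources used here, and samples with other antibodies were not analysed here.

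Peaks were merged into 36272 regions, of which 20900 had peaks in the pair of libraries of some genotype and were kept as consensus regions. Total signal was summed per region, divided by the library's median over the 5589 regions called in all 8 libraries, and tested as log2(value + 0.25) with limma 3.58.1 in R 4.3.3 (trended variance, 4 residual degrees of freedom, Benjamini-Hochberg adjustment over all 20900 regions, threshold 0.05). The fit held the libraries of H3WT, H3R2C, H3R8C and H3R26C. H3R17C has 1 usable H3K27me3 list and was described only. HA coverage was compared by an exact permutation test over libraries, two-sided. Start sites are those of the GENCODE gene records. The fit was tested on simulated data. The lists give no read totals, the totals that the study states per replicate cannot be assigned to lists shared by replicates, and no interval for counting error is given. Named were all 10 members, the other genes starting in the span, its regions, and HA peaks at member starts. The members and lists were chosen with earlier results of these data known. Alternatives covered the peak threshold, merging, overlap, pseudocount, scaling, filter, replicate block and each library left out.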

Additional observations from a re-analysis of the deposited data

Results flagged for a closer look

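The list set aside, labelled H3R17C replicate 1 with anti-H3K27me3 but named for another mark, held peaks at the locus that no comparison used. It had 37092 peaks in all, 13 of them in the span (65.2 kb). Of these, 10 lay in the 148.5 kb around Col1a2 that had no H3K27me3 peak in the 9 libraries used (60.4 kb), and 0 overlapped an H3K27me3 peak of another library. No control list of that kind was used here, and the mark it holds was not tested. In the H3R17C list that was used, the peak-free interval around the Col1a2 start was 148.8 kb long.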

How the results depend on the processing

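The number of regions of the span changed in H3R2C (23) was 14 with the upper 50% of peaks, 14 with an overlap of 50%, 13 with maximum signal, 11 with the signal as deposited, 7 of 17 when only regions called in every library were fitted, 5 at an adjusted p under 0.001, and 62 with all 3 labelled replicates, where identical lists count as separate. Leaving out 1 library gave 17 to 37. The number for H3R8C (4) was 2 with the upper 50% of peaks, 2 with the signal as deposited, 1 (lower) in the regions called in every library, 2 at an adjusted p under 0.001, and 10 with all 3 labelled replicates. Leaving out 1 library gave 3 to 9. None of the 27 region changes that passed turned direction under any alternative. Of these, 14 in H3R2C and 4 in H3R8C had no H3WT peak, so most alternatives could not have turned them. Member start sites with a peak fell from 5 to 3 in H3WT and from 4 to 2 in H3R26C with a window of 0.5 kb, and to 2 in H3R26C with the upper 50% of peaks. In H3R17C they went from 3 to 5 with a window of 2.5 kb and to 6 with any annotated transcript start. The covered percent of the span, H3R26C minus H3WT, ranged from -9.35 to 2.38 over the libraries left out. The HA difference stayed between -1.3 and -0.303 percentage points and passed in none of 15 alternatives. With the replicate block the counts were 22 for H3R2C and 3 for H3R8C. The deviations of libraries with the same number correlated by 0.00 to 0.16 over all regions, so the numbers were not taken to pair them. A missing peak means only a signal below the threshold of that list. The causes of these shifts were not tested.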
